A study of Mus musculus with 2 samples.

Results

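The genes described here are the cadherins and non-clustered protocadherins, 47 of the 23257 known genes whose FPKM were measured in mouse neural stem cells (NSCs). They were defined by symbol, as the numbered Cdh and Pcdh genes and Celsr1 to Celsr3. The Fat and Dachsous genes, the desmocollins and Dsg2 were included too. This set and the gene lists below were chosen with earlier results of these data known. A 48th symbol of the same kind in GENCODE M21, Dchs2, had no row under that name and was not analysed here. The cells came from the cerebral cortex of E14.5 CD-1 mice and were bought as primary stock. They were grown as monolayers in B27 and N2 medium with the growth factors EGF and FGF (20 ng/ml of either), and the labels name no genetic change or other treatment. There were 2 libraries of poly(A)+ RNA, replicate 1 and replicate 2, and no second condition, so no test between groups was possible and every value below is a description. FPKM are fragment counts scaled by transcript length and by how many fragments of the library were mapped, so that levels can be ordered between genes of unlike length. The lowest value in the table is 0.1, and a gene listed at 0.1 can be silent or below that level.

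Cadherins are membrane proteins that hold cells together through calcium-binding extracellular repeats. Classical cadherins of type I and type II pair with the same or a related cadherin on the next cell, and their tails bind beta-catenin and p120-catenin, which tie them to actin through alpha-catenin. Protocadherins outside the gene clusters adhere more weakly and carry tails that bind other partners, and the Celsr, Fat and Dachsous proteins are giant cadherins of planar cell polarity and growth control. In the cortical neuroepithelium N-cadherin, encoded by Cdh2, forms the apical junctions of radial glia, the stem cells of the embryonic cortex.

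The NSCs expressed about as large a share of these genes as of genes in general, with the level held by a few members. Of the 47 members 24 (51.1%) were above FPKM 1 in both libraries, beside 47.7% of all known genes. Another 18 (38.3%) were listed at 0.1 in both libraries, beside 40.3% of known genes, and 5 lay between. Above FPKM 10 were 7 members (14.9%), beside 24.5% of known genes. The median of the members was an FPKM of 1.23, compared with 0.695 over known genes, whereas among those above FPKM 1 in both libraries it was 4.37 compared with 10.8. The summed FPKM of the members was 251 in replicate 1 and 243 in replicate 2. Cdh20, Cdh2, Cdh13, Cdh4 and Fat1 made up 62.0% of it, and 7 members, with Pcdh10 and Cdh22, made up 74.8%. Such shares were not computed for other sets of genes, so whether they are particular to these genes is not known.

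**Figure D1:**
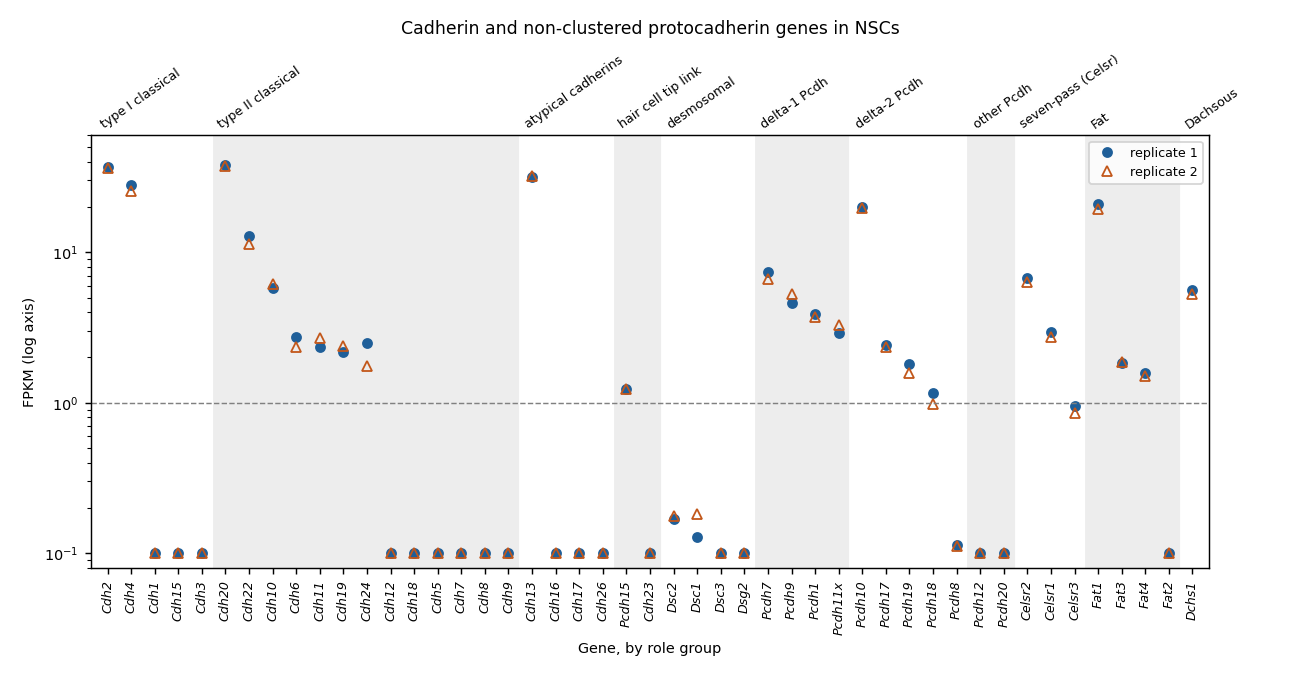
FPKM of each of the 47 members in replicate 1 (filled circles) and replicate 2 (open triangles) on a log axis, grouped by role and ordered by mean within a group, with a dashed line at FPKM 1. Of the 11 groups 5 held both members above FPKM 1 and members at 0.1, and Cdh2, Cdh20, Cdh13 and Cdh4 lay above all others in both libraries.

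The libraries carried the markers examined for the labelled cell type. Markers of astrocytes and of oligodendrocyte precursors were not examined. All 6 NSC markers examined were above FPKM 10 in both libraries, from Pax6 with a mean of 11.3 to Fabp7 with 2055. All 6 epithelial markers, Epcam among them, and all 4 microglia markers, Aif1 among them, were listed at 0.1 in both libraries. Of 6 endothelial markers 5, Pecam1 among them, were at 0.1 in both, and the highest, Kdr, had a mean of 0.188. Among 6 pericyte and fibroblast markers only Acta2, which other cells also express, passed FPKM 1, with a mean of 11.4, and Col1a2, Rgs5 and Dcn were at 0.1. Among 6 neuron markers 3 were above FPKM 1 in both libraries, with a median of 1.06 over the list. Snap25 was highest with a mean of 10.5, Tubb3 had 6.61 and 6.13, Rbfox3 1.10 and 1.09, Syt1 1.04 and 0.990 and Dcx 0.524 and 0.652, and Stmn2 was listed at 0.1. In bulk RNA a gene expressed by few cells cannot be told apart from one expressed weakly by all.

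Some members that follow each other along a chromosome, counting members alone, stood far apart in level. The sequences before the starts of 3 such pairs are shown to let the reader compare them. The windows are the 250 bases upstream of RefSeq starts, on the strand of the gene and on GRCm38.p6, with each CG dinucleotide in capitals because stretches rich in CG mark many promoters. Of the 47 members 28 had a window in the table, and 22 had one whose start lay within 1000 bases of the 5′ end of the gene in GENCODE M21. Cdh20 (mean FPKM 37.6, chr1:104768270-104768519, plus strand) is shown with Cdh7 (listed at 0.1, chr1:109982650-109982899, plus strand, the nearest of 3 starts).
Cdh20: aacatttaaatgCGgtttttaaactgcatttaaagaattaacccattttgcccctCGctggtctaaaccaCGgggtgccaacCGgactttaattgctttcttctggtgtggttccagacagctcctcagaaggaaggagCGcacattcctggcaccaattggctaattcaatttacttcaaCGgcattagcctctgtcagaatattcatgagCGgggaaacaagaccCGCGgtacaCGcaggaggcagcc
Cdh7: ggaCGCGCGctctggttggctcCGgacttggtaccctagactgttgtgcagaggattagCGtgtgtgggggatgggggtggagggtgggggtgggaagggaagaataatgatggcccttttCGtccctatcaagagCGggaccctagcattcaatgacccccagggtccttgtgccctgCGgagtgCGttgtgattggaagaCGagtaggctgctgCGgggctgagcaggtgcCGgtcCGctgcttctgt
Cdh6 (mean FPKM 2.55, chr15:13173676-13173925, minus strand) is followed along the chromosome by Cdh9 (listed at 0.1, chr15:16728665-16728914, plus strand).
Cdh6: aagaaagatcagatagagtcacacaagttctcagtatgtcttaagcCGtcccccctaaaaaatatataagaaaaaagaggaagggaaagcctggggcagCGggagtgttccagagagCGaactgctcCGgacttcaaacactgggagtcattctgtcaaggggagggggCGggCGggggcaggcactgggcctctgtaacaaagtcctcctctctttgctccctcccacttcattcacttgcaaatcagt
Cdh9: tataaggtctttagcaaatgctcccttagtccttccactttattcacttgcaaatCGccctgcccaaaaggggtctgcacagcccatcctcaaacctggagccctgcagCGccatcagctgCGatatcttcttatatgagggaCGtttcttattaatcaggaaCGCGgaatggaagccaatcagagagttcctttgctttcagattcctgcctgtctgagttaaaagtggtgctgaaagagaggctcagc
Pcdh17 (mean FPKM 2.37, chr14:84443313-84443562, plus strand) is followed by Pcdh20 (listed at 0.1, chr14:88471397-88471646, minus strand).
Pcdh17: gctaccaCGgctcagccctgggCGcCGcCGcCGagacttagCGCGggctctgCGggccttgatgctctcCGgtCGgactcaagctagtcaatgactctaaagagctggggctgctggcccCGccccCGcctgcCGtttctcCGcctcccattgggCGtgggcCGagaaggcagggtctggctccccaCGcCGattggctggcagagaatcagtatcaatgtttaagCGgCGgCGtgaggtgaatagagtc
Pcdh20: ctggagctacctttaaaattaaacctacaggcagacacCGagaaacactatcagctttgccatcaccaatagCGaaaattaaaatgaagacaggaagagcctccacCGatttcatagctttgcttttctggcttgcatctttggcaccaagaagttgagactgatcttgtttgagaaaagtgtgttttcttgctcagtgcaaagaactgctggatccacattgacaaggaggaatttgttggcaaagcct
The window of Cdh20 held 10 CG and that of Cdh7 held 13. Cdh6 and Cdh9 held 6 each, and Pcdh17 held 21 compared with 3 in Pcdh20. The expressed gene of a pair therefore had more CG in 1 pair of the 3. Among the highest members, Cdh2, Cdh13 and Cdh4 had no window, and the start of that of Fat1 lay 14761 bases from the 5′ end. They are absent from the medians that follow. Over the 12 members above FPKM 1 in both libraries that had a window within 1000 bases the median was 19.5 CG (range 6 to 32). Over the 7 at 0.1 in both it was 5 (range 0 to 20), so the ranges overlapped, and over all 32851 windows of the table it was 6. The letters GGGCGG, the GC box, occurred on either strand in 6 of the 12, in 2 of the 7 and in 32.7% of all windows. TATAAA occurred on either strand in none of these 19 windows and in 12.4% of all. Whether these starts are used in NSCs is not known from the files.

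Type I classical cadherins were represented by N-cadherin and R-cadherin alone. Cdh2 (chromosome 18, 16588877 to 16809246, minus strand) had an FPKM of 37.1 in replicate 1 and 36.3 in replicate 2, a mean of 36.7 ± 0.524 (SD, n = 2). Cdh4, encoding R-cadherin, which can also bind N-cadherin, had 27.8 and 25.4 (chromosome 2, 179442431 to 179899373, plus strand). Cdh2 was above Cdh4 in both libraries, 1.33-fold in replicate 1 and 1.43-fold in replicate 2. Cdh1, the epithelial E-cadherin gene, Cdh3, of P-cadherin, and Cdh15, of the muscle M-cadherin, were each listed at 0.1 in both libraries.

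The highest member was a type II cadherin gene, Cdh20, with 37.9 and 37.3 in replicates 1 and 2 (chromosome 1, 104768529 to 104995481, plus strand). RefSeq gives Cdh7 as an older name of Cdh20, but the table holds separate rows under both symbols. The values of Cdh20 and Cdh2 did not overlap between libraries, yet Cdh20 was only 1.02-fold the higher in replicate 1 and 1.03-fold in replicate 2, less than the usual difference between the libraries for a single gene. Of 13 type II genes 7 were above FPKM 1 in both libraries, beside 47.7% of all known genes. Cdh22, known from brain and pituitary, followed with 12.7 and 11.3, and Cdh10, a cadherin of the nervous system, with 5.80 and 6.18. These levels stood clearly apart, Cdh20 being 2.98-fold and 3.29-fold above Cdh22 in the respective libraries.
A lower set of type II genes lay between FPKM 1 and 3. Cdh6, known as K-cadherin of the kidney and also expressed in the neural tube, had 2.74 and 2.35. Cdh11, a cadherin of mesenchyme and bone, had 2.34 and 2.71. The values of both genes overlapped, so their order is not resolved. Cdh19, known from Schwann cell precursors, had 2.17 and 2.37. Cdh24 had 2.51 and 1.75, the largest ratio between libraries of any member above FPKM 1. The 6 remaining type II genes, Cdh5 of vascular endothelium (VE-cadherin) and Cdh7, Cdh8, Cdh9, Cdh12 and Cdh18, which are known from the nervous system, were all listed at 0.1 in both libraries.

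Type I and type II genes together held 52.4% of the summed FPKM of the members, in nearly equal parts, 25.8% for type I and 26.6% for type II. In each library the sum for type II was slightly the larger, with 66.8 compared with 65.2 in replicate 1 and 64.7 compared with 62.1 in replicate 2.

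**Figure D2:**
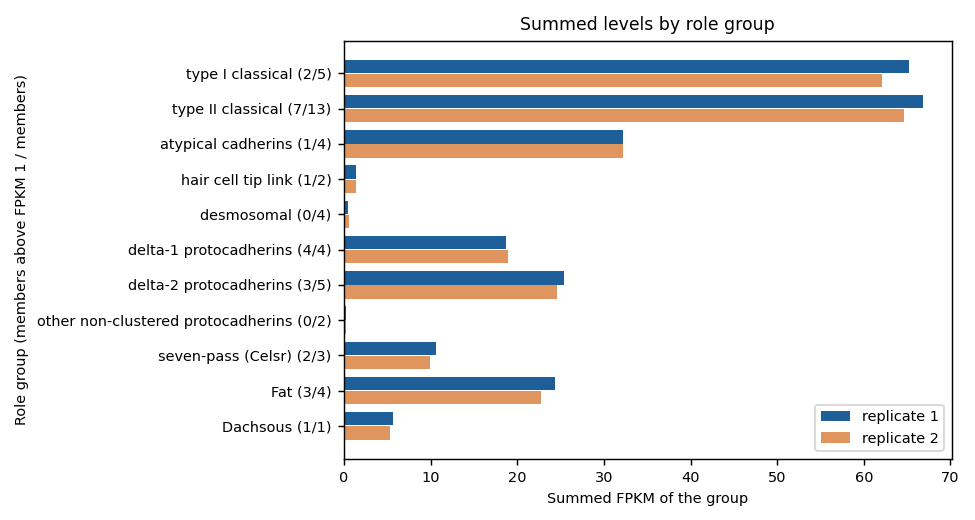
Summed FPKM of each role group in replicate 1 (dark bars) and replicate 2 (light bars), with the members above FPKM 1 in both libraries out of those found beside each name. Type I and type II classical cadherins had the largest sums, 65.2 and 66.8 in replicate 1, and desmosomal cadherins one of the smallest, 0.497.

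Among the 4 atypical cadherins, which are neither of type I nor of type II, only Cdh13 was above FPKM 1. Cdh13 encodes T-cadherin, which is held in the membrane by a lipid anchor and binds adiponectin. It had 31.9 in both libraries (SD 0.0198, n = 2; chromosome 8, 118283733 to 119324921, plus strand). Cdh2 was 1.16-fold and 1.14-fold higher than Cdh13 in replicates 1 and 2, and Cdh13 was 1.15-fold and 1.26-fold higher than Cdh4, so the 3 genes kept 1 order in both libraries. Cdh16 of the kidney, Cdh17 of the intestine and Cdh26 were listed at 0.1.

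The desmosomal cadherins were nearly silent. Dsc2 had 0.169 and 0.178 and Dsc1 0.128 and 0.184, and these overlapped. Dsc3 and Dsg2 were listed at 0.1 in both libraries, as were all 5 desmogleins outside the rule, Dsg1a, Dsg1b, Dsg1c, Dsg3 and Dsg4. Of 5 genes listed for the desmosomal plaque, to which these cadherins attach, Dsp, encoding desmoplakin, Pkp1 and Pkp3 were at 0.1 in both. Jup, of plakoglobin, which is also a plaque protein, was listed with the catenins instead and had 9.06 and 9.87. In the same list Perp, which encodes a membrane protein of desmosomes rather than a plaque protein, had 2.71 and 2.93. Pkp2 had 0.879 and 1.08, on either side of FPKM 1.

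All 4 delta-1 protocadherins were above FPKM 1, the only group of more than 1 gene with no member below it. These proteins share a tail motif that binds protein phosphatase 1. Pcdh7 had 7.36 and 6.68, Pcdh9 4.59 and 5.31, Pcdh1 3.90 and 3.70, and Pcdh11x, on the X chromosome, 2.91 and 3.29. The 4 genes kept their order in both libraries and none overlapped the next of the group, although the ratio of Pcdh7 to Pcdh9 moved from 1.60 to 1.26.

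The delta-2 protocadherins were led by 1 gene. Pcdh10, encoding OL-protocadherin (chromosome 3, 45378398 to 45435623, plus strand), had 19.9 and 19.6. It was 8.28-fold and 8.39-fold above the next of the group, Pcdh17, which had 2.40 and 2.34. Both proteins recruit the WAVE complex, a regulator of actin, through Nckap1. Pcdh19, the gene of a human epilepsy limited to females, whose protein associates with N-cadherin, had 1.81 and 1.57. Pcdh18 straddled the threshold with 1.15 and 0.978, and Pcdh8 was just above the lowest value with 0.114 and 0.111. Pcdh12, known from endothelium, and Pcdh20 were listed at 0.1. Of the tip link pair that joins hair cell stereocilia in the inner ear, Pcdh15, which oligodendrocyte precursors also express, had 1.23 in both libraries and Cdh23 was listed at 0.1. Of 8 genes acting at the tip link 6 (Ush1c, Ush1g, Myo7a, Lhfpl5, Tmc1 and Tmc2) were at 0.1, Cib2 had 6.01 and 6.08, and Tmie had 1.15 and 0.972.

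Giant cadherins were expressed from each of their families. Fat1, which acts on actin and cell polarity, had 20.9 and 19.3 (chromosome 8, 44935447 to 45052257, plus strand). Its values enclosed those of Pcdh10, so their order is not resolved. Fat3, known from retinal amacrine cells, had 1.84 and 1.87, and Fat4 1.59 and 1.51. Fat1 was 13.2-fold and 12.8-fold above Fat4, whereas Fat2, known from cerebellar granule cells, was listed at 0.1. Dchs1, the Dachsous ligand that binds Fat4 on the next cell, had 5.65 and 5.27 and was 3.56-fold and 3.50-fold above Fat4.
The Celsr genes, mouse relatives of Drosophila flamingo, differed in level in the same way in both libraries. Celsr2 had 6.73 and 6.34, Celsr1 2.95 and 2.73, and Celsr3, known from neurons growing axons, 0.958 and 0.860. Celsr2 was 2.28-fold and 2.32-fold above Celsr1, and 7.02-fold and 7.38-fold above Celsr3.

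Ordered by mean, 29 members lay above 0.1, and of the 28 steps from one to the next 16 separated genes whose values did not overlap. In 12 steps they overlapped. From Pcdh11x at 3.10 down to Fat3 at 1.86 each gene overlapped the next. By this rule the order of Pcdh11x, Celsr1, Cdh6, Cdh11, Pcdh17, Cdh19, Cdh24 and Fat3 is not resolved step by step. Among these 12 steps, Celsr1 was still above Cdh6 in both libraries, as were Pcdh7 above Celsr2 and Pcdh19 above Fat4. In the rest of the 12 steps the 2 genes changed order between the libraries. Pairs further apart in the order were not compared. The values of the first 4, Cdh20, Cdh2, Cdh13 and Cdh4, did not overlap each other or those of Fat1. Cdh20 was nonetheless only 1.02-fold and 1.03-fold above Cdh2 in replicates 1 and 2, less than the usual difference between the libraries.

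Some members next to each other in the order of members along a chromosome differed widely in level, and others were both at or near 0.1. Other known genes can lie between such members. On chromosome 15 a run of 5 type II genes held Cdh6 at 2.55, Cdh9 at 0.1, Cdh10 at 5.99, and Cdh12 and Cdh18 at 0.1 (means), and between Cdh9 and Cdh10 there was 1 other known gene. Chromosome 1 carries Cdh20, with 37.6, 4.99 Mb and 21 other known genes before Cdh7, with 0.1. Cdh19, with 2.27, follows Cdh7 after 0.748 Mb and no other known gene. On chromosome 8, 6 of 9 members were at 0.1 in both libraries, beside 40.3% of all known genes. Cdh3 and Cdh1, both at 0.1, are 0.0461 Mb and 1 other known gene apart. The desmocollin genes Dsc3, Dsc2 and Dsc1 adjoin each other on chromosome 18, with means of 0.1, 0.173 and 0.156, and Cdh2 lies 3.15 Mb before them. Pcdh1, with 3.80, and Pcdh12, with 0.1, are 0.0550 Mb and 1 other known gene apart on the same chromosome.

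**Figure D3:**
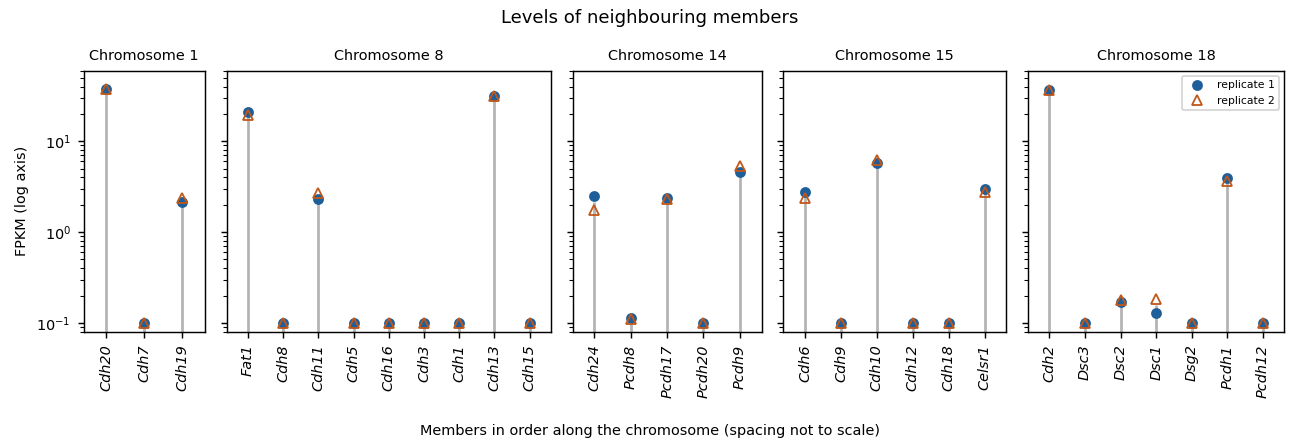
FPKM of members in order along 5 chromosomes that carry neighbouring members, in replicate 1 (circles) and replicate 2 (triangles) on a log axis, with a line to the mean and spacing not to scale. In the order of members, genes at 0.1 stood beside expressed ones on each chromosome, as Cdh7 beside Cdh20 and Pcdh12 beside Pcdh1. Other known genes can lie between, 21 in the case of Cdh20 and Cdh7.

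Because the libraries do not mark strand, other genes at the same loci were examined. Of 22 rows of the tables that overlap the span of a member, 16 were lncRNAs and 6 known genes, and the highest value of any was 0.353, that of 1700027H10Rik, antisense to Pcdh10. In 15 of the 16 lncRNA rows both libraries were at 0.1, the exception being 4932441J04Rik at Pcdh7 with 0.158 and 0.1. No lncRNA above 0.1 carried the values of a member.

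The libraries gave nearly the same levels for these genes. On the log2(FPKM + 0.1) scale the difference of replicate 2 from replicate 1 had an SD of 0.15 over the 24 members above FPKM 1, and 0.14 over the 11083 known genes above FPKM 1 in both. None of the 24 differed by over 1.5-fold, as 0.217% of those known genes did. Over the 25 members with a mean above FPKM 1 the largest difference was that of Cdh24, with a log2 difference of -0.50. Pcdh18, which is outside the 24, followed with -0.22, then Cdh6 with -0.21, Cdh11 with 0.21 and Pcdh9 with 0.20. A difference larger than that of Cdh24 was seen in 0.415% of the known genes above FPKM 1. Cdh24 was singled out as the largest, and its mean of 2.13 lay below the median of 10.8 over those genes. A share among genes of like level was not computed. More members were higher in replicate 1, 16 of 24, than known genes at large, of which 43.8% were. The median log2 difference was -0.06 over the members and 0.02 over the known genes. It also moved with transcript length over all known genes, from 0.04 for those up to 2 kb to -0.03 for the 507 from 8 to 12 kb, where 10 of the 24 members lie with a median of -0.09. The part of length in the difference of the members was not tested. The study calls its replicates biological, and the labels do not say whether they are separate cultures, so the spread between them may be partly technical.

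**Figure D4:**
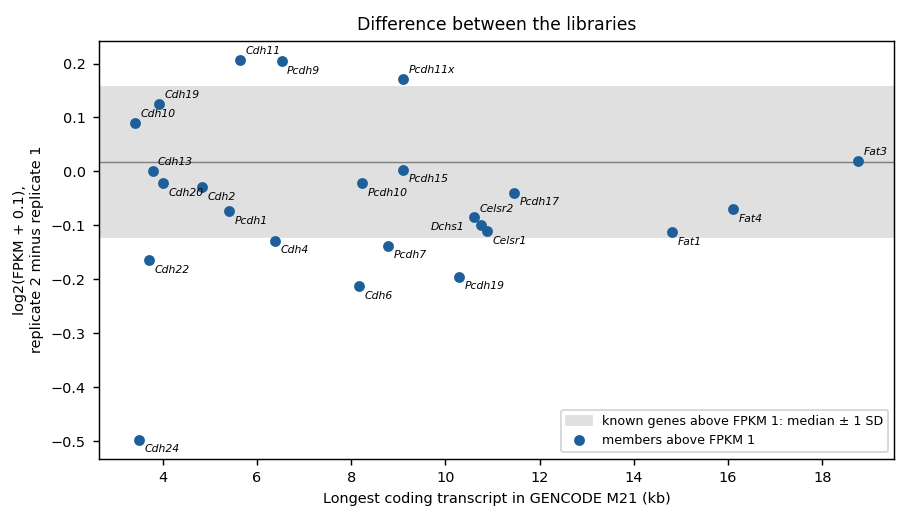
Difference of log2(FPKM + 0.1) between replicate 2 and replicate 1 for the 24 members above FPKM 1 in both libraries, plotted against the longest coding transcript of each gene in kb, with the median ± 1 SD of the 11083 known genes in grey. Cdh24 lay lowest at -0.50, and 16 of the 24 members were below 0.

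The precision behind a value depends on the fragments it rests on, which the tables do not give. An FPKM multiplied by the longest coding transcript of the gene in GENCODE M21 gives an approximate number of fragments per 1e6 mapped. By this measure Fat1, with a transcript of 14.8 kb, rested on the most, about 298 per 1e6, compared with 178 for Cdh2, 151 for Cdh20 and 7.44 for Cdh24. A listed value of 0.1 stands for at most about 0.274 fragments per 1e6 for Cdh18 and 1.45 for Fat2. The most fragments that the same listed value allows is therefore smaller for a short transcript.

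The lists of catenins, of nectins with afadin and vinculin, and of processing enzymes held 22 genes of proteins that act with classical cadherins. Of these 18 were above FPKM 1 and 10 above FPKM 10 in both libraries. Over all known genes the shares were 47.7% and 24.5%. Of 9 catenin genes 8 were above FPKM 1 in both libraries, with a median of 11.8. Ctnnb1, encoding beta-catenin, had 232 and 229 and was 6.25-fold and 6.30-fold above Cdh2. Ctnnd1, of p120-catenin, had 41.5 and 42.4, and its neural relative Ctnnd2 24.7 and 22.0. Of the alpha-catenins, which link to actin, Ctnna1 had 46.6 and 46.1, Ctnna2, the neuronal form, 2.37 and 2.36, and Ctnna3 was at 0.1. All but 1 of 6 genes for nectins, afadin and vinculin, partners of the same junction, were above FPKM 1, with Pvrl3, which encodes nectin-3, highest at a mean of 16.9 and Pvrl4, of nectin-4, lowest at 0.1 and 0.107. Among 7 enzymes that cut cadherins or their precursors 5 were above FPKM 1, and Adam10, which sheds the N-cadherin ectodomain, led with 42.5 and 43.2, while the proprotein convertase gene Pcsk5 was lowest with 0.385 and 0.399.
Repressors of Cdh1 were uneven. Zeb1 had 86.9 and 90.4, Zeb2 9.36 and 9.37 and Twist1 1.37 and 1.12, whereas Snai1, Snai2, Snai3 and Twist2 were at 0.1 in both libraries. Cdh1 itself was at 0.1, and no relation between these levels was tested.

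Partners of the giant cadherins and of the protocadherins were present as well. For comparison, 47.7% of all known genes were above FPKM 1 in both libraries. Of 9 genes tied to Fat and Dachsous 8 passed FPKM 1 in both libraries, and the list had a median of 20.9. They included Fjx1, of the family of the Golgi kinase that modifies Fat and Dachsous in Drosophila, with 26.4 and 21.9, Lix1l with 52.2 and 54.0, and Yap1, the growth regulator that acts downstream, with 23.5 and 22.6. Tead4, of the factors through which Yap1 acts on genes, was listed at 0.1. Of 11 planar polarity genes, which act with the Celsr proteins, 9 passed FPKM 1 in both libraries (median 13.7). Dvl3, a Dishevelled gene, was highest with 22.7 and 21.7, Vangl2 had 14.3 and 13.2 and Fzd3 16.5 and 17.1, while Fzd6 had 0.261 and 0.351. All 9 genes of the WAVE complex did so (median 25.2), and Nckap1, which binds the tails of Pcdh10 and Pcdh17, had 74.2 and 78.1. The highest of them was the small subunit gene Brk1 with 86.0 and 94.0, and the lowest Cyfip2 with 5.42 and 5.21. Outside the rule, Clstn1, a cadherin-related gene of vesicle transport, had 41.2 and 40.1, above every member, and the other 7 genes of that list were all below FPKM 1.

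**Figure D5:**
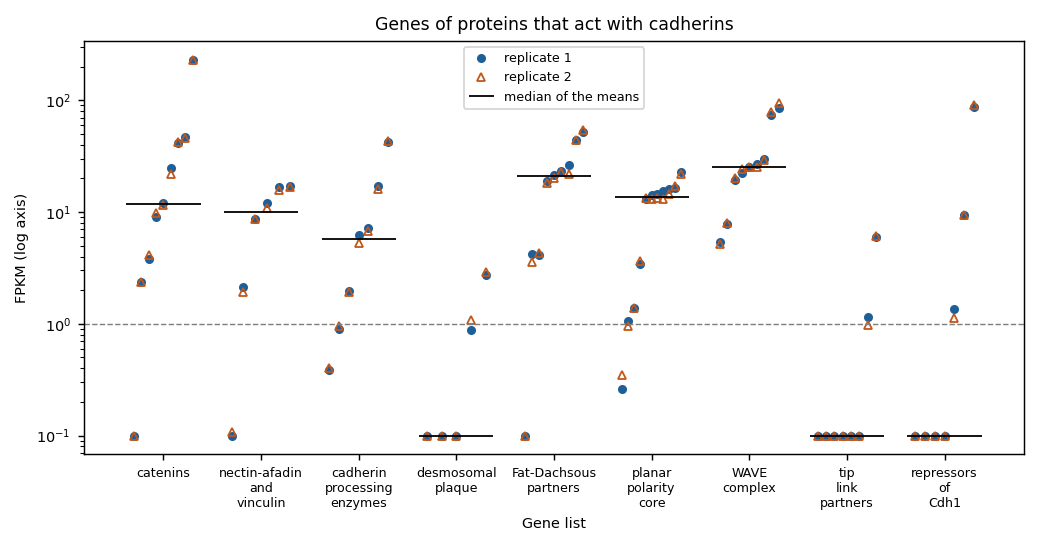
FPKM of the genes in 9 lists of proteins that act with cadherins, in replicate 1 (circles) and replicate 2 (triangles) on a log axis, with a bar at the median of the mean FPKM and a dashed line at FPKM 1. The medians of catenins (11.8) and of the WAVE complex (25.2) lay above FPKM 10, and those of the desmosomal plaque, tip link and Cdh1 repressor lists were at 0.1. Jup, of plakoglobin, is shown with the catenins and not in the plaque list.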

How the data were processed

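RNA of 2 NSC libraries was selected for poly(A), made into unstranded TruSeq libraries and read as pairs. The authors deposited FPKM for known genes and lncRNAs in each library, without pooling. By the methods and the submitters' processing notes, reads were aligned to mm10 with TopHat2 2.0.11 and Bowtie2 2.2.2, and FPKM were computed with Cufflinks 1.3.0 on a joint annotation, correcting for multi-mapped reads and sequence bias. The supplementary methods set FPKM under 0.1 to 0.1 for fold changes, and no deposited value is lower. Read counts were not used here, so depth and counting error are unknown.

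From these values the level of each member in each library, the mean and the SD were taken, with thresholds of FPKM 1 and 10 and a pseudocount of 0.1 for log2 differences. No test was made, as there is 1 condition. Members were grouped in 11 roles, 17 gene lists were described, and members and lists were chosen with earlier results of these data known. All members with a mean above FPKM 1 were to be named, and of each list the highest, the lowest (an example where several were at 0.1) and direct binders. Amino acid sequences are not shown. Gene positions follow GENCODE M21 (GRCm38, which mm10 is built from), and promoter windows those of RefSeq on GRCm38.p6. Alternatives were other thresholds, pseudocounts and filters and each library alone. Python 3.11.15, NumPy 2.4.6, pandas 2.3.3 and matplotlib 3.10.9 were used, and the statistics were tested on simulated data.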

Additional observations from a re-analysis of the deposited data

How the results depend on the processing

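No paired analysis was possible because there is 1 group. With either library left out, 24 to 25 members were above FPKM 1 (51.1% to 53.2%), the median was 1.23 in both cases, the highest member held 15.1% to 15.4% of the summed FPKM, and 6 role groups and 8 gene lists had a median above FPKM 1, as on the mean. At FPKM 5 and 10 in place of 1, 11 (23.4%) and 7 (14.9%) members passed, and at FPKM 5 only 1 role group had a median above the threshold. With only members of a mean above FPKM 0.1, 82.8% were above FPKM 1 and the median was 2.84, since the genes listed at 0.1 are left out. Cdh20 held 29.1% of the sum of classical cadherins alone (15.2% of all members). The SD of log2 differences between libraries was 0.075 for members above FPKM 5 and, chosen after seeing the data, 0.12 without Cdh24 (0.15 with it). Of 28 counts for single groups and lists, 7 moved by over 1.5 times at FPKM 5. Without replicate 1 the genes of the desmosomal plaque list above FPKM 1 were 2 (Pkp2 and Perp) in place of 1. Without replicate 2 those of the tip link list were 2 (Cib2 and Tmie) in place of 1. A gene listed at 0.1 can be silent or below that level, because no lower value is listed, and the depth of the 2 libraries is not known.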
